A study of Mus musculus with 192 samples.

Results

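The spleens of Nrf2 knockout mice that had flown were compared with those of Nrf2 knockout mice kept on the ground. The 11 libraries were chosen by tissue, genotype and condition from the 192 libraries of the series. They came from 5 flight mice (FL_KO, mouse numbers 01, 02, 09, 11 and 12) and 6 ground control mice (GC_KO, numbers 01, 02, 04, 09, 11 and 12). Flight mouse 04, an animal with an intestinal haemorrhage, was left out, and its values are named only where they are used. All 11 mice were male C57BL/6J animals that carried the same whole-body Nrf2 deletion (Nrf2KO). The labels give them as 12 weeks old. In the study's methods 12 weeks is the age reached before launch, so the flight mice were older at dissection. All 11 had been screened for the absence of the congenital hepatic shunt that this knockout can carry. The FL_KO mice lived for about a month on the International Space Station in singly housed cages and were dissected in the United States after splashdown, while the GC_KO mice were housed in the same type of cage in Japan at another date. Flight, return, site and date therefore cannot be told apart in these samples. The numbers given to the spleen libraries by the submitters also place all flight libraries before all ground libraries, so library series and flight cannot be told apart either. The WT spleens of the same mission (FL_WT, 6 mice, and GC_WT, 6 mice) and the temporal bones of the same 11 knockout mice were used for comparison. The temporal bone contains marrow, another blood-forming tissue.

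RNA-Seq of whole spleen gave 13.4 M to 13.6 M estimated gene counts per FL_KO library and 13.2 M to 13.5 M per GC_KO library. The log2 CPM of replicate libraries correlated with Pearson's r of 0.973 to 0.987 across genes. Levels of Nfe2l2, which encodes Nrf2, were 63.0 to 66.1 TPM (a share of all transcripts that takes account of transcript length) in FL_KO and 60.4 to 67.8 TPM in GC_KO, against 73.1 to 86.7 TPM over the 12 WT spleens. All knockout spleens were thus below all WT spleens, and GC_KO was below GC_WT by a log2 fold change of -0.25 (edgeR quasi-likelihood test, adjusted p = 0.0004). The value is summed over the whole gene and does not show the deleted part. Flight did not move it beyond the spread between mice, at 0.05 ± 0.04 (SE) on the log2 scale and an adjusted p of 0.70. All log2 fold changes below are FL_KO minus GC_KO in normalised counts, with negative values lower after flight, n = 5 against 6, and an edgeR adjusted p under 0.05 is the threshold for a call.

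The mouse spleen is a blood-forming organ throughout life. Its red pulp harbours erythroid precursors, which mature from proliferating progenitors to haemoglobin-filled reticulocytes, and it also holds the macrophages that clear old red cells and take back their iron. The white pulp holds B cells and T cells, and plasma cells lie between the compartments. In maturing erythroid cells GATA1 and KLF1 drive the genes for globin chains, haem synthesis and the membrane skeleton. In bulk tissue, fewer cells of a type and less RNA per cell cannot be told apart.

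Of 16170 genes tested, 83 (0.513%) were lower and 25 (0.155%) were higher in FL_KO than in GC_KO. Erythroid genes stood at the head of the lower genes when these were ranked by p. The anion exchanger gene Slc4a1 was 34.4-fold lower, the membrane skeleton gene Epb42 was 27.7-fold lower, and the globin gene Hbb-bs was 6.46-fold lower. The largest fall of all, a log2 fold change of -5.68, was in a gene outside the erythroid lists, where the largest was -5.10 (Slc4a1). The genes that rose included the endothelial repressor Bcl6b and the matrix genes Sparcl1 and Fbln2, with smaller changes of 1.57-fold, 1.37-fold and 1.63-fold. The size of the change exceeded 1 on the log2 scale in 43 of the lower and 4 of the higher genes. The median log2 fold change of all tested genes was 0.01. The total of 108 calls ranged from 46 without GC_KO mouse 09 to 147 without GC_KO mouse 04, and it was 63, 67, 59 and 62 without FL_KO mice 01, 02 and 12 and GC_KO mouse 11. No FL_KO mouse overlapped any GC_KO mouse for 62 of the 83 lower genes and 18 of the 25 higher genes, where 0.823% of all tested genes had every flight mouse below every ground mouse and 0.606% had every flight mouse above.

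Promoter sequence is shown for 4 of the erythroid genes whose values are given in full below, because GATA1 and KLF1 bind short motifs that can be read in it. The 250 bases before the start site were taken from RefSeq (GRCm38.p6) and are written 5′ to 3′ on the gene's own strand. Capitals mark the letters AGATAA or those of TGATAA, which GATA factors bind. They also mark the letters CACCC, which KLF factors bind. Both strands were searched, so that the reverse complements are in capitals too. No GATA match overlaps a CACCC match.
Trim10, chr17:36869324-36869573, plus strand: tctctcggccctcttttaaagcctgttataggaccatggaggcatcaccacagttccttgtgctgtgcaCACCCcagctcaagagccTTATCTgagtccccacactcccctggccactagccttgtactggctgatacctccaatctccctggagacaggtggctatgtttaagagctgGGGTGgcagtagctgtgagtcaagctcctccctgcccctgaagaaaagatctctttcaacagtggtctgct
Alas2, chrX:150547167-150547416, plus strand: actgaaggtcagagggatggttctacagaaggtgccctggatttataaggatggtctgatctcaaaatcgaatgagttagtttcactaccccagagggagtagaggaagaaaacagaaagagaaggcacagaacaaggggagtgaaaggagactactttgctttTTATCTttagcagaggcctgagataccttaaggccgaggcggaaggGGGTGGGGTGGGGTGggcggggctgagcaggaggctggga
Hba-a2, chr11:32296242-32296491, plus strand: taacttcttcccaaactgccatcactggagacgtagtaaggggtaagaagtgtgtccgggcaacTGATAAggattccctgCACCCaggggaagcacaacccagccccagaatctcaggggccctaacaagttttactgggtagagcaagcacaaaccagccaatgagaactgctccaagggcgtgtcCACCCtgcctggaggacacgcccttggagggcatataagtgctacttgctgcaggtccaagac
Hbb-bs, chr7:103827929-103828178, minus strand: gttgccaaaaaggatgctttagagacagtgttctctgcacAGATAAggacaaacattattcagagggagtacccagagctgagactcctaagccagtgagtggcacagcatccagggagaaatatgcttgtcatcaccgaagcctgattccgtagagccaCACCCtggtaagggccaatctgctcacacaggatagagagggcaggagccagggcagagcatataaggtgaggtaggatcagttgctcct
Trim10 held a GATA match 163 bases and CACCC matches 181 and 71 bases before the start. Alas2 held a GATA match 86 bases upstream and 3 CACCC matches that lay 40, 35 and 30 bases upstream. All distances are from the RefSeq start. The GENCODE coordinates given below for Alas2, Hba-a2 and Hbb-bs begin inside the printed window. In Hba-a2 the GATA match was 186 bases and in Hbb-bs 210 bases before the start. The 4 printed genes thus each held both kinds of match. The windows of Aqp1, Myb and Mkrn1, whose values are also given in full below, held no GATA match in these 250 bases. No window was at hand for Slc4a1. The window of Hba-a1 was identical to that of Hba-a2 over 247 bases at a shift of 3 bases, so the pair counts as 1 sequence in effect. RefSeq windows reaching from 250 bases before to 50 bases after the start were at hand for 24 of the 34 erythroid genes that were lower. A GATA match was present in 13 of them (54.2%), against 21% of 27025 genes with a window, and a CACCC match in 21 (87.5%), against 59.8%. Both kinds were present in 11 (45.8%), against 10.2% of all genes. Hba-a1 and Hba-a2 were counted separately in these shares. The genes were taken from erythroid lists, and GATA1 and KLF1 drive erythroid genes, so the shares describe the lists and not the flight response. Erythroid genes that were not called were not compared. A match is a run of letters, not a shown binding site.

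The 5 erythroid gene lists held 78 tested genes, of which 34 were lower and 0 higher in FL_KO, where 0.513% of all tested genes were lower. For 76 of the 78 the log2 fold change was below 0, against 46.98% of all tested genes. In 33 every FL_KO mouse was below every GC_KO mouse, against 0.823% of all tested genes. DESeq2 called 55 erythroid genes lower and 0 higher, where it called 171 of 16170 genes lower. It called each of the 83 lower genes of all kinds. Leaving out 1 mouse gave 22 to 50 lower erythroid genes, and the lowest count was without FL_KO mouse 12. The fit of the knockout groups alone gave 12. The members were distributed unevenly over the lists, with all of the globin genes called but few of the haem synthesis enzymes.

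**Figure D1:**
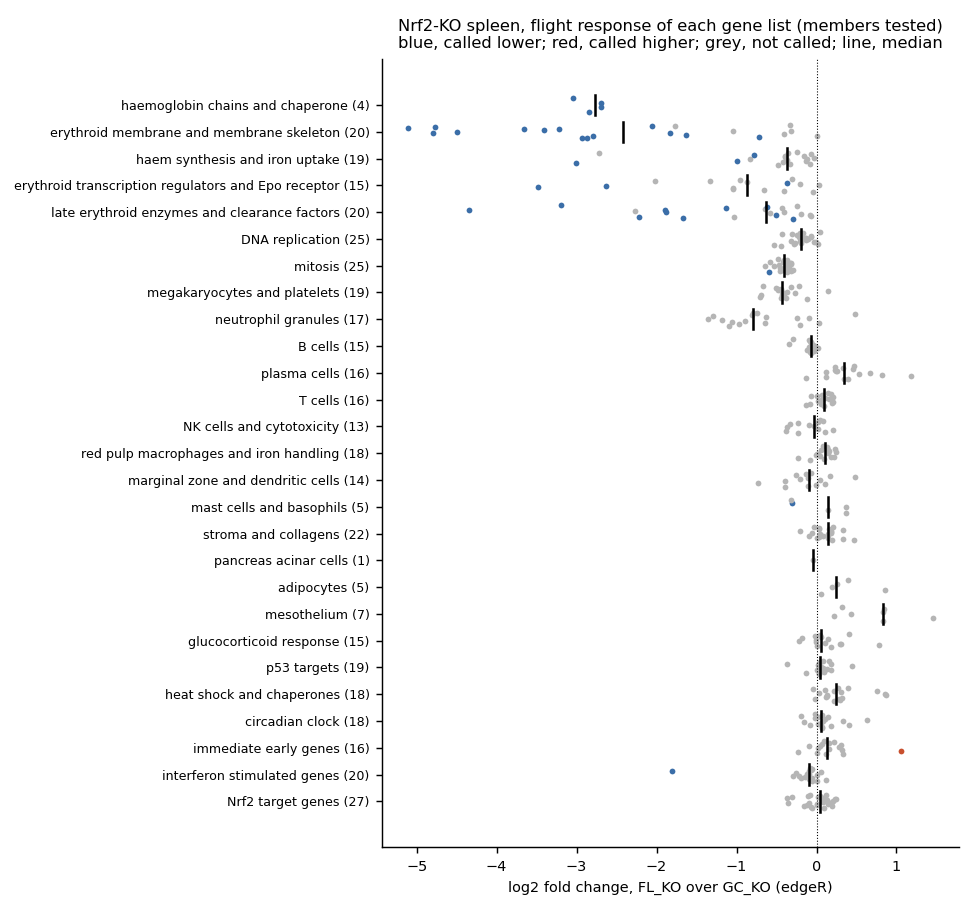
Log2 fold change (FL_KO minus GC_KO) of each tested member of the gene lists in Nrf2-KO spleen. Each point is 1 gene, blue where lower and red where higher at an adjusted p under 0.05 and grey otherwise, and the line marks the median of the list, which is -2.77 for haemoglobin chains and -2.42 for membrane genes.

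Haemoglobin chains were lower in all 4 tested genes, Hba-a1, Hba-a2, Hbb-bs and Hbb-bt, with a median log2 fold change of -2.77. Their summed level was 2452 to 4105 TPM in FL_KO and 7926 to 37950 TPM in GC_KO, with medians of 3234 and 23740 TPM, which is 0.245 to 0.411% of all transcripts after flight and 0.793 to 3.79% on the ground. The flight mice lay close together, whereas the ground mice differed among themselves by more than the distance from the lowest ground mouse to the highest flight mouse. Reads of Hba-a1 and Hba-a2, and of Hbb-bs and Hbb-bt, come from near-identical copies, so the division of reads within each pair is uncertain while the sum is not touched by it. Flight mouse 04, outside the comparison, had a sum of 4871 TPM, between the groups. The embryonic chains Hbb-bh1 and Hbb-y were too low to be tested.

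Hba-a2 (chr11:32296489-32297298, plus strand, GRCm38), an adult alpha globin, was at 2046, 1109, 1384, 1782 and 1549 TPM in FL_KO mice 01, 02, 09, 11 and 12. In GC_KO its level was 3778 TPM in the lowest, 11052 at the median and 17608 in the highest mouse. No flight mouse reached a ground mouse, and the log2 fold change was -2.69 ± 0.42 (SE, adjusted p = 0.0024). Hbb-bs (chr7:103826534-103828096, minus strand), an adult beta globin, was at 1296, 816, 976, 1181 and 1040 TPM in the same order in FL_KO. In GC_KO its lowest, median and highest levels were 2468, 7742 and 11738 TPM. The groups did not overlap, and the log2 fold change of -2.69 ± 0.42 was the same to 2 decimals as that of Hba-a2, with an adjusted p of 0.0021.

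Genes of the erythroid membrane and its skeleton were lower in 14 of 20 members, with a median log2 fold change of -2.42. Slc4a1 (chr11:102348824-102366203, minus strand) encodes band 3, the chloride and bicarbonate exchanger to which the skeleton is anchored. It was at 1.65, 0.53, 0.63, 2.92 and 0.70 TPM in FL_KO and at 6.36, 37.0 and 93.2 TPM in the lowest, median and highest GC_KO mouse. The log2 fold change was -5.10 ± 0.77 (adjusted p = 0.0021), and here too no mouse overlapped. Sptb, the beta spectrin of the skeleton's meshwork, changed by -2.06 ± 0.39, and Epb42, which ties the meshwork to band 3, by -4.79 ± 0.80. Ank1, whose ankyrin links spectrin to band 3, changed by -2.93 ± 0.57. Levels of Epb42 in flight were 0.05 to 0.38 TPM, so its fold change rests on few reads.

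Aqp1 (water channel) had the highest level of the lowered membrane genes and one of the smaller changes. Its level was 26.5, 24.9, 26.6, 20.2 and 19.2 TPM in FL_KO and 27.8, 39.2 and 53.5 TPM at the lowest, median and highest of GC_KO. The log2 fold change was -0.72 ± 0.16 with an adjusted p of 0.037, and the call was lost when any FL_KO mouse or GC_KO mouse 02, 09 or 11 was left out. Aqp1 is also made by vascular endothelium, so that not all of its RNA need be erythroid.

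Haem synthesis and iron uptake fell in 3 of 19 members, Alas2, Fech and Tfrc, with all 19 log2 fold changes below 0 and a median of -0.37. Alas2 (chrX:150547375-150570638, plus strand) encodes the erythroid form of the first enzyme of haem synthesis. It was at 23.3, 13.7, 18.2, 22.5 and 16.6 TPM in FL_KO against 53.5, 172 and 264 TPM in the lowest, median and highest GC_KO mouse. The change was -3.01 ± 0.43 (adjusted p = 0.0021), and the highest flight mouse stayed below the lowest ground mouse. Fech, which inserts iron in the last step, changed by -0.99 ± 0.18 and Tfrc, the transferrin receptor, by -0.78 ± 0.16. None of the other members was called, although 13 of all 19 had an unadjusted p under 0.05 in the edgeR test. With the mouse number set as a covariate, described below, 6 members were called lower.

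Among erythroid regulators 3 of 15 were lower, Klf1, Hemgn and Myb, and the median of the list was -0.87. Klf1, the erythroid Krüppel-like factor, changed by -2.64 ± 0.47 and Hemgn by -3.48 ± 0.67. Myb (chr10, a factor of proliferating progenitors) had a small and even change, with 19.7, 21.4, 24.3, 18.1 and 17.1 TPM in FL_KO and 25.4, 26.2 and 30.7 TPM in the lowest, median and highest GC_KO mouse. Its groups did not overlap, and its log2 fold change was -0.37 ± 0.07 (adjusted p = 0.010).

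Late erythroid enzymes and clearance factors were lower in 10 of 20 members, all 20 had log2 fold changes below 0, and the median was -0.63. Trim10 (chr17:36869574-36877833, plus strand) encodes a ubiquitin ligase of terminal erythroid cells. It was at 0.54, 0.24, 0.31, 0.99 and 0.23 TPM in FL_KO and at 2.13, 10.4 and 17.3 TPM in the lowest, median and highest GC_KO mouse, a change of -4.35 ± 0.61 (adjusted p = 0.0021). The ubiquitin ligase gene Mkrn1, expressed at 56.5, 52.5, 56.6, 45.5 and 47.3 TPM in FL_KO and 62.9, 83.0 and 98.2 TPM in GC_KO, changed by -0.51 ± 0.08. Other lowered members were Bpgm, which makes the haemoglobin ligand 2,3-bisphosphoglycerate, at -1.67 ± 0.29, Bnip3l, a mitophagy receptor that clears mitochondria from reticulocytes, at -0.30 ± 0.05, and the ubiquitin enzymes Ube2o at -0.62 ± 0.10 and Ube2l6 at -1.13 ± 0.20. Neither Trim10 nor Mkrn1 overlapped between the groups.

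**Figure D2:**
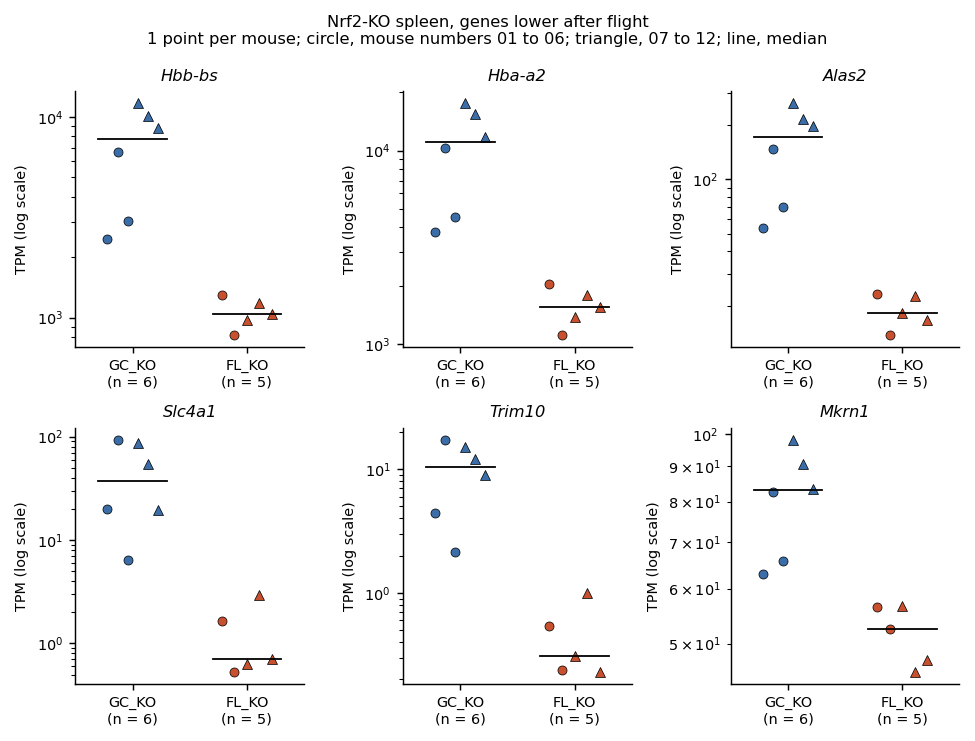
TPM on a log axis of 6 lowered genes (Hbb-bs, Hba-a2, Alas2, Slc4a1, Trim10 and Mkrn1) in each FL_KO and GC_KO spleen. Each point is 1 mouse, circles for mouse numbers 01 to 06 and triangles for 07 to 12, and the line is the median of the group. For each gene all FL_KO points lie below all GC_KO points.

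Outside the erythroid lists 49 further genes were lower. Among them Tfdp2, a dimer partner of E2F factors, changed by -0.67 ± 0.10 (adjusted p = 0.0021), and Specc1 by -1.04 ± 0.17. Lrmp, Dcaf12, Cyp4f16, Arhgap33 and Slc8a2 were among the 25 lower genes with the smallest adjusted p, with changes between -0.66 and -0.25. Kit, the stem cell factor receptor of progenitors and mast cells, changed by -0.31 ± 0.07, and Rsad2, an interferon-induced antiviral gene, by -1.81 ± 0.37.

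Of the 25 higher genes none belongs to an erythroid list. Bcl6b (chr11:70224128-70229798, minus strand), a transcriptional repressor known from endothelial cells and memory T cells, was at 11.3, 12.3, 7.17, 7.17 and 7.99 TPM in FL_KO and 5.73, 6.05 and 6.45 TPM in the lowest, median and highest GC_KO mouse. The change was 0.65 ± 0.11 (adjusted p = 0.0044), and FL_KO mice 01 and 02 were above the other flight mice. Sparcl1 (chr5:104079111-104113733, minus strand), a matricellular glycoprotein of vessels and stroma, was at 122, 105, 128, 101 and 120 TPM in FL_KO and 74.3, 87.3 and 101 TPM in GC_KO. Its groups met closely, with the lowest flight mouse at 101.1 and the highest ground mouse at 100.9 TPM, and the change was 0.46 ± 0.08 (adjusted p = 0.0080). Fbln2 (chr6:91212455-91272540, plus strand), the fibulin-2 of basement membranes and elastic fibres, was at 9.40, 12.0, 9.37, 7.72 and 8.68 TPM in FL_KO and 5.17, 5.85 and 7.35 TPM in GC_KO. Its change was 0.70 ± 0.13 (adjusted p = 0.010) and the groups did not overlap.

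Other higher genes have known roles in vessels, stroma and signalling. They were Adamts5 (a matrix protease, 0.51 ± 0.10), Sema3g (an endothelial semaphorin, 0.50 ± 0.10), Sema4c (0.53 ± 0.12), Ackr3 (a scavenging receptor of CXCL12, 0.37 ± 0.08), Antxr1 (a collagen-binding receptor, 0.30 ± 0.06), Yap1 (the Hippo pathway coactivator, 0.25 ± 0.05), She (0.29 ± 0.06), Igf2 (a growth factor, 0.40 ± 0.08), Evc2 (0.44 ± 0.10), Gem (0.49 ± 0.11) and Cdr2l (0.42 ± 0.10). Angptl4, a lipoprotein lipase inhibitor induced by fasting, and Fos, an immediate early gene, rose by 0.87 ± 0.20 and 1.05 ± 0.21. Mcfd2, Ergic1, Fkbp2, Rcn3 and Slc39a7, whose products act in the endoplasmic reticulum or early secretory pathway, rose by 0.19 to 0.34, and Fkbp1a, which encodes the binding protein of FK506, rose by 0.18. These themes were read from the called genes and were tested on no independent list. The stroma and collagen list, also written with earlier results of these data known, had 0 of 22 members called in either direction. Its median was 0.14, with 18 members above 0 and 4 below. In WT spleen 5 of its members were called higher and 0 lower.

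**Figure D3:**
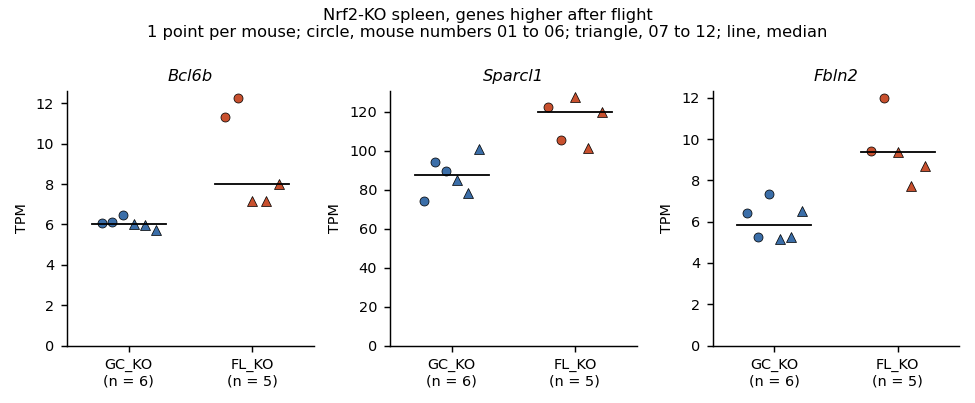
TPM on a linear axis from 0 of Bcl6b, Sparcl1 and Fbln2 in each FL_KO and GC_KO spleen. Circles are mouse numbers 01 to 06, triangles 07 to 12 and lines group medians. All FL_KO points lie above all GC_KO points, by the narrowest margin for Sparcl1 (101.1 against 100.9 TPM).

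The remaining 3 higher genes were immunoglobulin variable segments, and each rested on 1 or 2 mice. Their edgeR adjusted p of 0.042 to 0.048 stood near the threshold. Each of the 3 calls was also lost when any 1 GC_KO mouse was left out, at an adjusted p of 0.057 to 0.14. Ighv1-4 was at 9615 TPM in FL_KO mouse 01, at 131 to 508 TPM in the other flight mice and at 33.9 to 186 TPM in GC_KO. Its log2 fold change of 4.51 ± 1.07 became 1.52 (adjusted p = 0.48) without mouse 01. Igkv2-137 was at 4408 TPM in FL_KO mouse 12 and at 69.8 to 220 TPM in the others, and its log2 fold change of 3.44 became 0.46 (adjusted p = 0.66) without mouse 12. Ighv5-4 was at 5685 TPM in mouse 09 and 2819 TPM in mouse 12 against 148 to 277 TPM in the other flight mice, and the call was lost without either, at 2.24 (adjusted p = 0.13) and 3.01 (adjusted p = 0.097). Variable segments resemble each other in sequence, so the reads assigned to a named segment are uncertain.

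None of the 16 plasma cell markers tested was called, with a smallest adjusted p of 0.10. Of these markers 15 had log2 fold changes above 0 with a median of 0.34, which was 0.04 within mouse numbers 01 to 06 and 0.62 within 07 to 12. In 2 of the 16 every FL_KO mouse was above every GC_KO mouse, against 0.606% of all tested genes. The summed level of the list, carried by Igkc and Ighm, was 78170 to 111700 TPM in FL_KO and 52600 to 73170 TPM in GC_KO, so the sums did not overlap, whereas flight mouse 04 was at 66270 TPM, within the ground range. Igkc, the kappa constant region, was at 51846 to 78707 TPM in FL_KO and 35115 to 48501 TPM in GC_KO, a log2 fold change of 0.67 ± 0.24 (adjusted p = 0.24). The part of plasma cell RNA in the erythroid result was not tested.

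Markers of other spleen cells changed less or varied widely. B cell genes had a median of -0.07, T cell genes 0.09, NK cell and cytotoxicity genes -0.03, marginal zone and dendritic cell genes -0.10 and red pulp macrophage and iron handling genes 0.11, each with 0 members called. Cd79a, a chain of the B cell receptor, was at 764 to 913 TPM in FL_KO and 801 to 904 TPM in GC_KO. Neutrophil granule genes had a median of -0.80 with 15 of 17 members below 0, but their summed levels overlapped (262 to 396 TPM in FL_KO, 313 to 1146 TPM in GC_KO) and 0 were called. Megakaryocyte and platelet genes had a median of -0.43 and 0 calls, but the median was -0.08 without GC_KO mouse 04, -0.66 within mouse numbers 01 to 06 and -0.02 within 07 to 12, with sums of 358 to 578 TPM in FL_KO and 409 to 1276 TPM in GC_KO. Both classes were spread over a wide range among ground mice. Among mast cell and basophil markers Kit was the called member, of 5 tested. Of 14 pancreas acinar markers, which would mark attached pancreas, only Cela1 was high enough to be tested, and it was at 5.02 to 12.7 TPM in FL_KO and 8.64 to 13.1 TPM in GC_KO. The 5 adipocyte markers tested had a median of 0.25 and the 7 mesothelium markers one of 0.83, with 0 calls and sums of 34.4 to 61.7 TPM in FL_KO and 25.7 to 45.0 TPM in GC_KO for the mesothelium. The mesothelium median was 1.62 within mouse numbers 01 to 06 and 0.10 within 07 to 12.

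Genes of proliferating cells were lower as a group in sign but rarely called. All 25 mitosis genes had log2 fold changes below 0, with a median of -0.41, and 1, the cytokinesis scaffold gene Anln, was called at -0.60 ± 0.13. Of 25 DNA replication genes 23 were below 0, the median was -0.19 and 0 were called. Pcna, the replication clamp, was at 109 to 122 TPM in FL_KO and 116 to 143 TPM in GC_KO. Over all tested genes 46.98% had a log2 fold change below 0.

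Stress and Nrf2 lists showed few calls between the flight and ground knockout spleens. Of 27 tested Nrf2 target genes 0 were called and the median was 0.04. Hmox1, the haem oxygenase of iron-recycling macrophages, was at 476 to 707 TPM in FL_KO and 361 to 674 TPM in GC_KO, and Fth1, the ferritin heavy chain, at 2132 to 2277 and 2206 to 2363 TPM. Glucocorticoid response, p53 target, heat shock and circadian clock lists had medians of 0.05, 0.04, 0.24 and 0.06 with 0 members called. Among 16 immediate early genes Fos was called higher, and among 20 interferon stimulated genes Rsad2 was called lower. Of the 27 lists 18 had no called member.

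The knockout mice also differed between sets of mouse numbers. The split of numbers 01, 02 and 04 from 09, 11 and 12 was noticed in the data, and the labels do not say what the number stands for. The counts between the sets therefore describe this split and are no test of it. They come from a fit with the set in its groups, unlike the 108 flight calls. Between these sets, in the KO spleens, 1906 genes (11.8%) were called, 798 (4.94%) higher and 1108 (6.85%) lower in the set from 07 to 12. Of 15 glucocorticoid response genes 13 were lower in that set, with a median of -1.10, as were 16 of 18 heat shock genes (median -0.81) and 11 of 18 clock genes. Summed glucocorticoid response levels were 2082 to 2484 TPM in FL_KO mice 01 and 02 and 992 to 1149 TPM in FL_KO mice 09, 11 and 12, and in GC_KO they were 1795 to 2115 TPM and 1058 to 1261 TPM. The set difference thus had the same direction in flight and on the ground. Flight mouse 04 was at 2105 TPM for this list but at 4934 TPM for heat shock, against 7107 to 8498 TPM in FL_KO mice 01 and 02. WT clock sums also separated by set, at 329 to 402 against 277 to 305 TPM in FL_WT and 321 to 376 against 270 to 301 TPM in GC_WT. WT glucocorticoid response sums separated in FL_WT but overlapped in GC_WT (1344 to 1884 against 1061 to 1402 TPM). Fkbp5 and Tsc22d3, both induced by glucocorticoids, were lower by -1.83 and -1.62 on the log2 scale in the set from 07 to 12, the clock genes Nr1d1 and Per1 by -2.33 and -1.36, and the chaperone gene Hspa1a by -3.10.

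**Figure D4:**
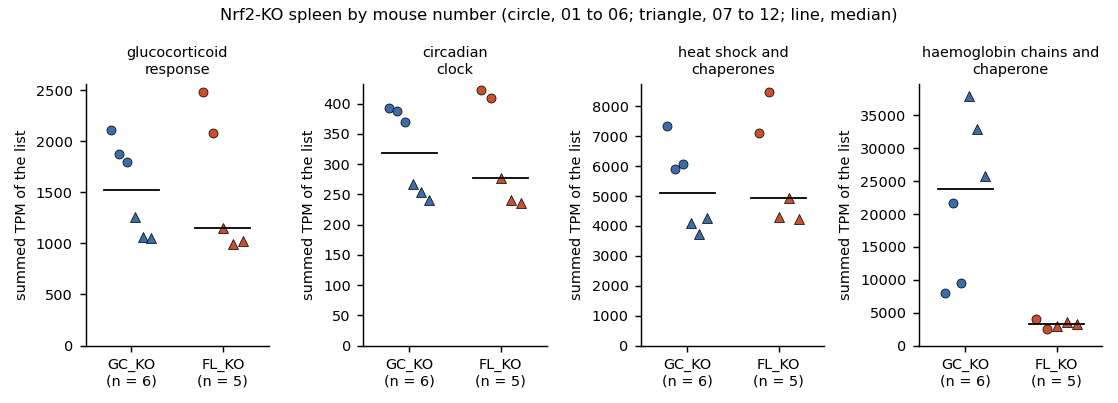
Summed TPM of 4 gene lists in each FL_KO and GC_KO spleen. Circles are mouse numbers 01 to 06 and triangles 07 to 12. The glucocorticoid, clock and heat shock sums separate by mouse number in both conditions, and the haemoglobin sums separate by flight (2452 to 4105 TPM in FL_KO, 7926 to 37950 TPM in GC_KO).

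Both sets hold flight and ground mice, so the flight response was also taken within them. With the set as a covariate 150 genes were lower (0.928%) and 91 higher (0.563%), and all 83 lower and 23 of the 25 higher genes were still called, with 51 erythroid genes lower. Within 01 to 06, 2 flight against 3 ground mice, 16 genes (0.0989%) were lower and 36 (0.223%) higher. In that set 1 erythroid gene was called, although 71 of 78 had log2 fold changes below 0. Within 07 to 12, 3 against 3 mice, 28 genes (0.173%) were lower and 2 (0.0124%) higher, with 15 erythroid genes lower and 76 of 78 below 0. Hbb-bs changed by -1.91 (adjusted p = 0.16) in the first set and -3.19 (adjusted p = 0.0086) in the second. The ground mice of the set from 01 to 06 had haemoglobin sums of 7926 to 21630 TPM, below the 25840 to 37950 TPM of ground mice 09, 11 and 12. A test of the difference between the sets in flight response called 0 genes by edgeR, with 1175 (7.27%) at an unadjusted p under 0.05. For Bcl6b the change was 0.96 in the first and 0.41 in the second set.

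WT spleens, which share no mouse with the knockout spleens, were used to ask whether the response was that of the genotype. In WT 366 genes (2.26%) were called, 1.15% of all tested genes being higher and 1.11% lower, and 58 genes were called in both genotypes, which is 53.7% of the knockout calls and 15.85% of the WT calls. The direction was the same for all 58. Of the 83 genes lower in FL_KO all 83 had a log2 fold change below 0 in WT and 42 were called there, with a median of -1.08 in knockout and -0.63 in WT. Of the 25 higher genes 24 had the same sign in WT and 16 were called, with medians of 0.44 and 0.40. The genes were chosen by their call in the knockout, which favours larger values in the knockout.

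The erythroid lists were lower in WT too, with median log2 fold changes of -2.23 for haemoglobin chains, -1.69 for membrane genes, -0.16 for haem synthesis, -0.37 for regulators and -0.37 for late enzymes, against -2.77, -2.42, -0.37, -0.87 and -0.63 in the knockout. WT haemoglobin sums were 0.127 to 0.536% of transcripts in FL_WT and 0.664 to 2.55% in GC_WT. For Klf1 the changes were -2.64 in knockout and -1.36 in WT, a difference of -1.28 ± 0.65 (unadjusted p = 0.060), and for Aqp1 -0.72 and -0.17, a difference of -0.55 ± 0.22 (unadjusted p = 0.022, adjusted p = 0.999). The difference was smaller than its error for Slc4a1, at -0.38 ± 1.12, and for Hbb-bs, at -0.45 ± 0.53. The test of the genotype interaction called 0 of 16170 genes by edgeR and 0 by DESeq2, with 643 genes (3.98%) at an unadjusted p under 0.05. A difference between the genotypes in the flight response was not detectable with these mice, which does not show that the responses were equal.

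**Figure D5:**
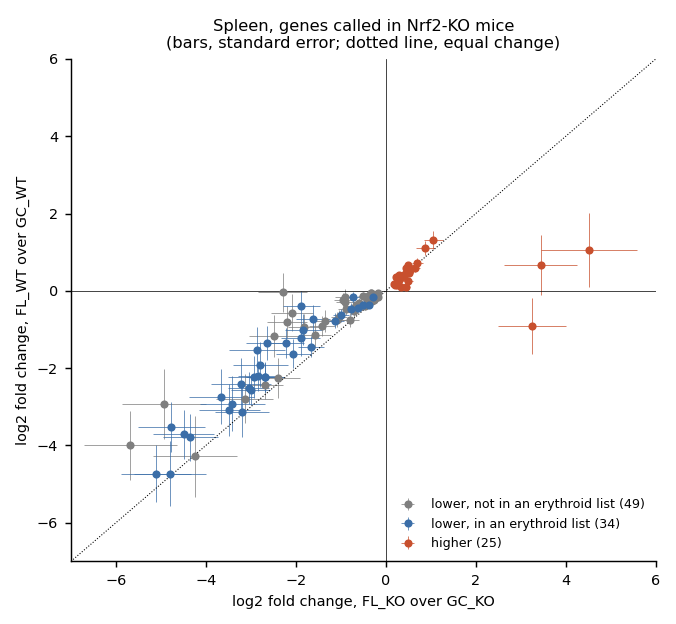
Log2 fold change of flight against ground in WT spleen (vertical axis) and in Nrf2-KO spleen (horizontal axis) for the 108 genes called in the knockout. Bars are standard errors. All 83 lower genes lie below 0 in both genotypes, and 24 of the 25 higher genes lie above 0 in both.

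The temporal bones of the same 11 knockout mice allowed a comparison with a tissue that contains marrow. There 0 of 17323 genes were called between flight and ground. Of the 83 genes lower in spleen 81 were tested in temporal bone, with 0 called and a median of -0.13. Haemoglobin chains made up 1.61 to 11.2% of transcripts in FL_KO and 3.53 to 7.70% in GC_KO temporal bone, so the range of the flight mice held that of the ground mice. Slc4a1 was at 54.9 to 427 TPM in flight and 124 to 334 TPM on the ground there, without separation by condition. Its log2 fold change was -0.43 in temporal bone and -5.10 in spleen. The test of that difference over 18519 genes, with the mouse as a block, called 0 genes by edgeR, 500 (2.70%) at an unadjusted p under 0.05. DESeq2 called 15, of which 14 were lower in spleen and 9 belong to the erythroid lists. Whether any gene was called for a difference between spleen and temporal bone thus depends on the tool. In edgeR 5 of 5 haemoglobin, 13 of 20 membrane and 2 of 19 haem synthesis genes had an unadjusted p under 0.05 for it. So did 12 of 18 neutrophil granule and 12 of 19 megakaryocyte and platelet genes. These 2 lists each had a median log2 fold change of 1.02 in temporal bone, against -0.80 and -0.43 in spleen. Haemoglobin and membrane genes had medians of -0.28 and -0.25 in temporal bone. Library numbers of the temporal bones separate the mouse numbers 01 to 06 from 07 to 12, and with the set included for each tissue edgeR again called 0 genes.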

How the data were processed

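RNA-Seq libraries of spleen from GC_KO, FL_KO, GC_WT and FL_WT mice and temporal bone libraries of the same knockout mice were used. Per the labels and the study's methods, the authors sequenced single reads, aligned them to mm10 with STAR 2.6.1 and quantified genes of GENCODE with RSEM 1.3.1. The deposited table gives expected counts and TPM for 54752 genes, and the strand setting of the counting is not given in the sources used here. The other 504 per-sample columns were not used.

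Expected counts were rounded and tested with edgeR 4.0.16 (R 4.3.3; TMM, filterByExpr, quasi-likelihood F test, Benjamini-Hochberg over all genes tested) in 1 fit of the 4 spleen groups without flight mouse 04, which the study omitted from most of its analyses. DESeq2 1.42.0 and limma 3.58.1 were alternatives. TPM values are given as levels only, except that limma used log2(TPM + 1) for genes averaging 5 TPM or more in a group. Coordinates are those of the GENCODE annotation of GRCm38. The tissue interaction was fitted with the mouse as a block. The scripts were tested on simulated data. Depth per library was nearly equal, and the number of mice limits the precision. Nothing in the labels pairs flight and ground mice.

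Named genes were Nfe2l2, every higher gene, the 25 lower genes with the smallest adjusted p, up to 6 called members of each list or, with none called, up to 3 with the highest TPM. Values in every FL_KO mouse, and the lowest, median and highest GC_KO values, are given for genes with the smallest adjusted p in each direction and for called erythroid genes of high TPM. Some genes that this rule names are not reported here. Slc4a1 stands among the latter. Fkbp5, Nr1d1, Hspa1a and the 3 immunoglobulin segments' mice were described after their values were seen. The lists and comparisons were chosen with earlier results of these data known, so no list is independent support, and the split by mouse number was added after seeing the data.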

Additional observations from a re-analysis of the deposited data

Results flagged for a closer look

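Each FL_KO group of 5 mice and GC_KO group of 6 mice was searched for 1 value standing apart from the others (Dixon's criterion at the 95% level), and 12 of 174 groups met it, where chance gives about 1 in 20. Among the immunoglobulin segments, Igkv2-137 was at 4408 TPM in FL_KO mouse 12 and Ighv1-4 at 9615 TPM in FL_KO mouse 01. Among genes higher after flight, Sema3g was lowest in FL_KO mouse 11 at 10.4 TPM and highest in GC_KO mouse 09, also at 10.4 TPM, so the groups touched at that level. Mcfd2 stood apart at 51.94 TPM, the lowest GC_KO value, in mouse 12. Fkbp1a was lowest of FL_KO at 114.1 TPM in mouse 12, Evc2 at 3.82 TPM in mouse 09, and Angptl4 highest at 16.58 TPM in mouse 01. Among genes lower after flight, Lrmp was highest of FL_KO at 115.7 TPM in mouse 09 and Slc8a2 lowest at 1.14 TPM in mouse 12. The summed level of haem synthesis and iron uptake genes was lowest of FL_KO in mouse 12 at 420.6 TPM, against 442.8 TPM in the nearest mouse. Megakaryocyte and platelet genes summed to 1276 TPM in GC_KO mouse 04, against 636.2 TPM in the nearest mouse. No cause was tested for any of these values.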

How the results depend on the processing

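The test as reported called 108 genes, 25 higher and 83 lower. RLE factors called 25 higher and 84 lower, TMM without erythroid genes 24 and 84, no filter on low counts 14 and 71, and a mean TPM of at least 5, 22 and 64. DESeq2 called 71 higher and 171 lower (242 in all), limma on log2(TPM + 1) 6 and 93, the fit with flight mouse 04 38 and 122, and the fit of FL_KO and GC_KO alone 2 and 15 (17 in all). With the erythroid membrane level of each mouse as a covariate, which itself differs between the groups, edgeR called 0 higher and 0 lower genes, with 970 (6.00%) at an unadjusted p under 0.05. This covariate sums the counts of the membrane list, 14 of whose 20 members were themselves called lower. The fit therefore cannot decide whether the erythroid calls hold. Leaving out 1 mouse gave 46 to 147 calls, 5 to 37 higher and 41 to 119 lower. The total moved by over 1.5 times without FL_KO mouse 01 (63), 02 (67) or 12 (59), or GC_KO mouse 09 (46) or 11 (62). Fewer mice enter these fits. Lower erythroid genes numbered 34 as reported, 12 in the fit of FL_KO and GC_KO alone, 55 by DESeq2 and 0 with the erythroid covariate. Same-numbered flight and ground knockout mice deviated together by correlations of 0.014 to 0.173, of which 2 of 5 exceeded 0.1. All 5 were above 0, and values of this size cannot decide whether the numbers pair the mice. A replicate block by number called 37 higher and 103 lower (140 in all). With the number set as covariate 91 higher and 150 lower genes were called (241 in all), within 01 to 06, 36 and 16 (52 in all), and within 07 to 12, 2 and 28 (30 in all). These last 3 were chosen after seeing the data. Each alternative that could test it called 0 genes for the genotype interaction. Medians of lists with a called member changed sign 4 times: haem synthesis to 0.02 and mast cells to -0.06 with the erythroid covariate, mast cells to -0.01 without FL_KO mouse 01 (range -0.01 to 0.28 over the mice left out), and interferon stimulated genes to 0.02 within 07 to 12. List medians moved beyond the spread between mice in 25 further cases, 10 of them with the erythroid covariate (membrane genes -0.38, haemoglobin chains -1.49, regulators -0.12, late enzymes -0.21), 4 within 01 to 06, 6 within 07 to 12, 3 with limma, 1 under the block by number (megakaryocytes -0.05) and 1 without GC_KO mouse 04. Of the alternative values of named genes, 2218 kept direction and side of the threshold, 407 lost the call and 7 gained it. The cause of these changes was not tested. Arms of 5 and 6 mice limit the power for changes of small size.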
